A study of Danio rerio with 6 samples.

Results

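The collagen prolyl and lysyl hydroxylases read by 4 named probes, those of *p4ha1b*, *plod1a*, *p4ha2* and *p4ha1a*, were compared between *vhl* mutant and wild-type zebrafish embryos. The members were taken by the GenBank accession that the array files give for each probe (BC045890 for *p4ha1b*, BC125830 for *plod1a*, BC076508 for *p4ha2* and NM_001044998 for *p4ha1a*). Each accession had 1 probe, so the set holds 4 of the 41031 zebrafish probes measured. Whole embryos at 4 dpf (days post fertilisation) were used, all of the strain labelled TL/LWT mix, with 3 *vhl* mutant arrays (replicates 1, 3 and 4) and 3 wild-type arrays (replicates 2, 3 and 4), each hybridised with Cy3-labelled RNA of 30 pooled embryos. The methods of the study describe the mutants as homozygous for the *vhl* allele hu2117, carried by every cell of the embryo, and the line as carrying the reporter transgene Tg(*phd3::EGFP*)i144. Whether the wild-type pools came from the same clutches, or carried the reporter, is not given in the sources used here.

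Collagen prolyl 4-hydroxylase is a tetramer of catalytic α subunits, encoded by the *p4ha* genes, and β subunits, encoded by *p4hb*, which also acts alone as a protein disulphide isomerase. In the endoplasmic reticulum it turns proline residues of new procollagen chains into 4-hydroxyproline, which holds the collagen triple helix together at body temperature. Lysyl hydroxylases, encoded by the *plod* genes, make hydroxylysine, to which sugars are attached and from which collagen fibrils are cross-linked. Both enzyme families need oxygen, iron, 2-oxoglutarate and ascorbate, as do the prolyl hydroxylases of HIF (Hypoxia Inducible Factor) that mark HIF-α for recognition by the product of *vhl*. The genes *p4ha1a* and *p4ha1b* are paralogues, both counterparts of human *P4HA1*.

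Genotype was read from the labels alone, since 0 probes carried the name *vhl*. Spots well above background made up 67.2 to 72.4% of the zebrafish spots in *vhl* mutants, against 67.2 to 69.5% in wild-type, and 0 spots were saturated. Each of the 2 slides held arrays of 1 group, so the slide cannot be told apart from the genotype. The arrays also carried 2 scan dates, which were not fitted. How the dates fell on the 2 groups is not given here, so the date may also be inseparable from the genotype. Over the whole array 687 probes (1.67%) were called higher in *vhl* mutants and 635 (1.55%) lower, together 3.22%, where a call needed a limma adjusted p of at most 0.01 and at least a 2-fold change. All levels below are log2 intensities after background correction and quantile normalisation, and every fold change is *vhl* mutant over wild-type.

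The transcripts of *p4ha1b*, *plod1a* and *p4ha2* were higher in *vhl* mutants, by 29.9-fold, 10.5-fold and 5.88-fold. The paralogue *p4ha1a* lay near background on most arrays and was not called. Thus 3 of the 4 members were called higher, against 1.67% of all probes, and the same 3 had groups that did not overlap, against 21.4% of all probes. Each of the 3 also rose by more than 2 on the log2 scale, as did 0.456% of all probes. The gene names of these 3 probes appear in the study's table of changed genes, which was made from the same arrays, so this count is not independent evidence of their direction. As whole embryos were measured, more cells of a type and more RNA per cell cannot be told apart. The plot of log2 intensity by array shows the separation of each probe.

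**Figure D1:**
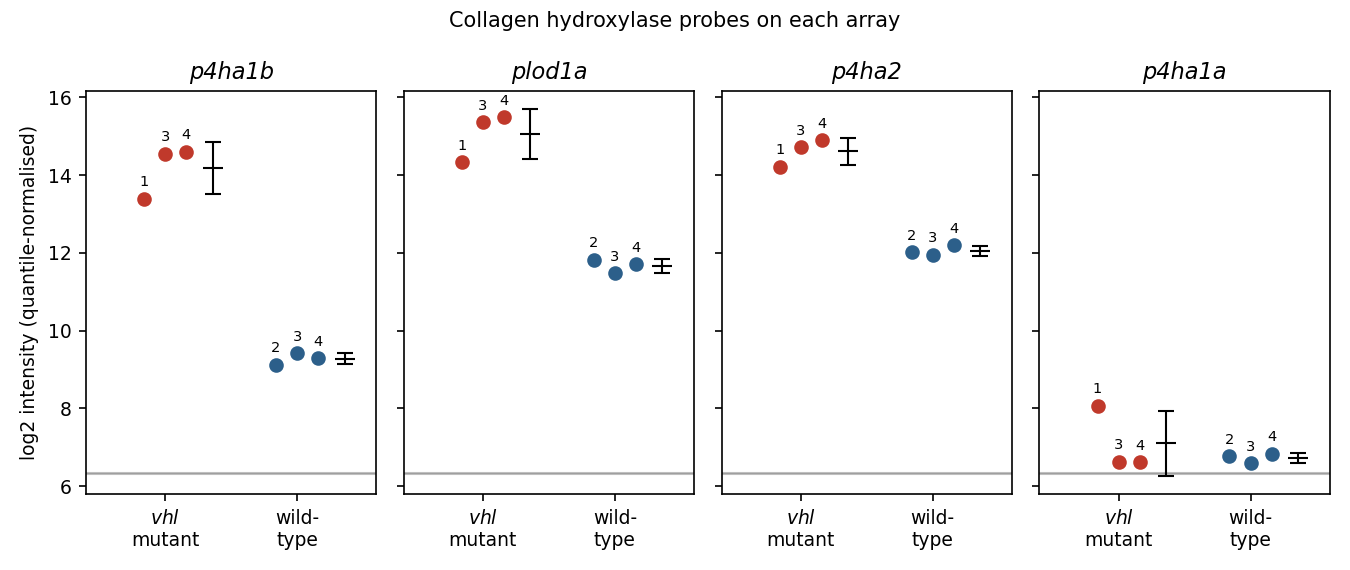
Quantile-normalised log2 intensity of the 4 collagen hydroxylase probes on each of the 3 *vhl* mutant arrays (red, left) and 3 wild-type arrays (blue, right), numbered by replicate, with black bars for the mean ± SD and a grey band for the range of the array means of the negative control spots. For *p4ha1b*, *plod1a* and *p4ha2* every mutant array lies above every wild-type array, with mutant replicate 1 the lowest of the 3, while for *p4ha1a* mutant replicate 1, at 8.07, stands away from the other 5 arrays.

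*p4ha1b* encodes an α subunit of prolyl 4-hydroxylase, the subunit that carries the active site. Its log2 intensities were 13.40, 14.55 and 14.61 in *vhl* mutant replicates 1, 3 and 4, against 9.13, 9.43 and 9.30 in wild-type replicates 2, 3 and 4. The groups were far apart, with 3.97 on the log2 scale between the lowest mutant array and the highest wild-type array. The level averaged 14.18 ± 0.68 in *vhl* mutants and 9.28 ± 0.15 in wild-type (SD, n = 3 each), a log2 fold change of 4.90 (SE 0.33, 95% interval 4.11 to 5.69, limma adjusted p = 0.000858). Only 5 of all probes had a larger rise.

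The array carried 2 spots of the *p4ha1b* probe, and both showed the difference before any correction. The first spot had a median pixel intensity of 8402.5, 17780.5 and 20049.5 in *vhl* mutant replicates 1, 3 and 4, against 458, 586 and 465 in wild-type replicates 2, 3 and 4. The second had 11278, 23111 and 28045.5 in the mutants, against 703, 783 and 871 in wild-type. The second spot was the brighter on all 6 arrays, by 1.30 to 1.87 times, so the distance between repeat spots of 1 probe was small beside the distance between the groups. The local background around the spots of the 4 members was between 17 and 31 on every array.

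*plod1a* encodes a lysyl hydroxylase. Its log2 intensities were 14.33, 15.36 and 15.49 in *vhl* mutant replicates 1, 3 and 4, against 11.82, 11.48 and 11.71 in wild-type replicates 2, 3 and 4. All mutant arrays were higher than all wild-type arrays, with replicate 1 again the lowest of the mutants. The level averaged 15.06 ± 0.63 in *vhl* mutants and 11.67 ± 0.18 in wild-type (SD, n = 3 each), a log2 fold change of 3.39 (SE 0.31, 95% interval 2.64 to 4.14, limma adjusted p = 0.00160). 16 probes of the array had a larger rise. Before correction its spot read 18456, 35698 and 46667 in the mutants, against 4158, 3030 and 3714 in wild-type. This call was lost when wild-type replicate 3 was left out (log2 fold change 3.30, limma adjusted p = 0.0127) and when wild-type replicate 4 was left out (3.42, limma adjusted p = 0.0120).

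*p4ha2* encodes another prolyl 4-hydroxylase α subunit. Its probe had log2 intensities of 14.22, 14.72 and 14.90 in *vhl* mutant replicates 1, 3 and 4, against 12.02, 11.96 and 12.20 in wild-type replicates 2, 3 and 4. The groups did not overlap, and the arrays of each group lay closer together than for *p4ha1b* and *plod1a*. The level averaged 14.61 ± 0.35 in *vhl* mutants and 12.06 ± 0.12 in wild-type (SD, n = 3 each), a log2 fold change of 2.56 (SE 0.18, 95% interval 2.12 to 3.00, limma adjusted p = 0.000974). There were 69 probes with a larger rise. Before correction its spot read 16932.5, 23400 and 29370 in the mutants, against 4767.5, 4243 and 5214 in wild-type.

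The 3 called probes were well above background on all 6 arrays. All 3 calls were lost together in 2 of the 25 alternative ways of processing. Without any normalisation the limma adjusted p was 0.0365 for *p4ha1b*, 0.0755 for *plod1a* and 0.0702 for *p4ha2*, and with scaling to the 75th percentile it was 0.0125, 0.0325 and 0.0325 in the same order. In both, the direction stayed and the fold changes moved by at most 0.29 on the log2 scale, although relative to the median of all probes, which moved too, they were 4.16 for *p4ha1b*, 2.56 for *plod1a* and 1.70 for *p4ha2*. The plot of fold changes under alternative processing shows the values before this shift. Of single probes, no exact permutation test over 3 against 3 arrays can reach 0.05, and the smallest p it allows, 0.1, was found for each of the 3.

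**Figure D2:**
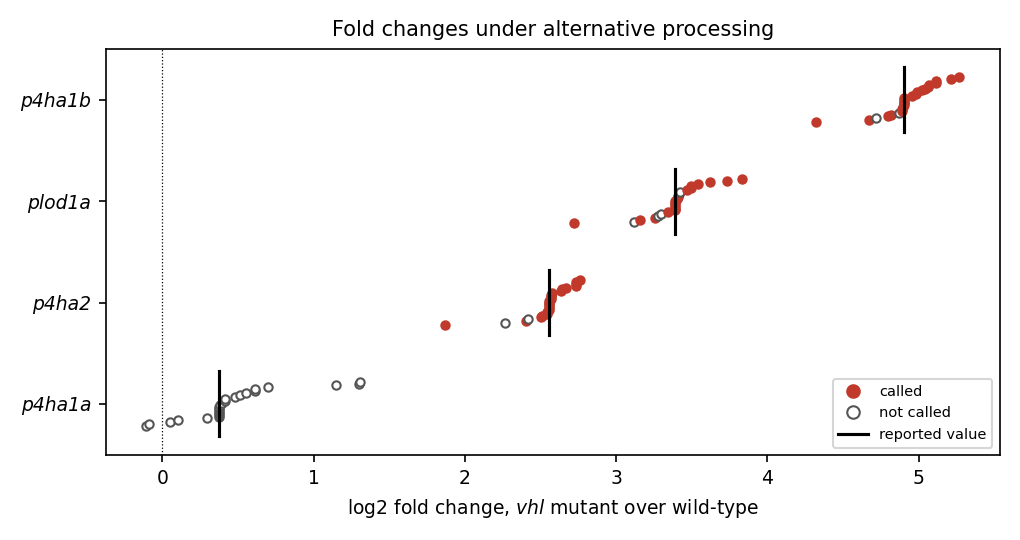
Log2 fold change of *vhl* mutant over wild-type (x axis) for each of the 4 collagen hydroxylases (y axis) under each alternative way of processing, filled red where the gene was called and open where it was not, with a black line for the reported value. *p4ha1b*, *plod1a* and *p4ha2* stay at 1.87 or above in all of them, while *p4ha1a* ranges from −0.11 to 1.31 and was never called.

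**Figure D3:**
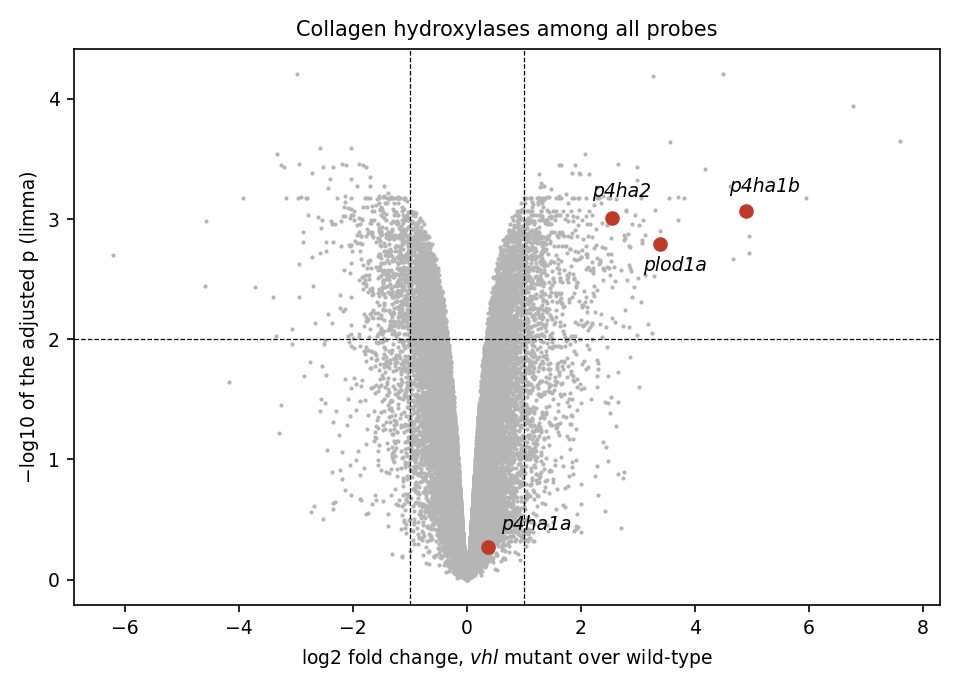
Log2 fold change of *vhl* mutant over wild-type on the x axis against −log10 of the limma adjusted p on the y axis for all 41031 probes (grey points), with the 4 collagen hydroxylases in red and dashed lines at the limits of a call (an adjusted p of 0.01, drawn at its −log10, and a log2 fold change of 1 in either direction). *p4ha1b* (4.90), *plod1a* (3.39) and *p4ha2* (2.56) lie among the largest rises, and *p4ha1a* (0.38) lies among the probes that were not called.

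*p4ha1a*, the paralogue of *p4ha1b*, gave a different picture. Its log2 intensities were 8.07, 6.63 and 6.61 in *vhl* mutant replicates 1, 3 and 4, against 6.77, 6.59 and 6.83 in wild-type replicates 2, 3 and 4. Mutant replicate 1 was the highest of all 6 arrays, whereas mutant replicates 3 and 4 lay within the range of the wild-type arrays. The level averaged 7.10 ± 0.84 in *vhl* mutants and 6.73 ± 0.13 in wild-type (SD, n = 3 each), a log2 fold change of 0.38 (SE 0.40, 95% interval −0.58 to 1.33, limma adjusted p = 0.535).

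The signal of *p4ha1a* was close to the floor of the array. Feature Extraction rated it well above background only on mutant replicate 1 (1 of 3) and on wild-type replicate 4 (1 of 3), and the negative control spots averaged 6.30 to 6.35 on the same scale. Before correction its spot read 192, 52 and 56.5 in *vhl* mutant replicates 1, 3 and 4, against 69, 62 and 77.5 in wild-type replicates 2, 3 and 4. Without mutant replicate 1 the log2 fold change was −0.11 (limma adjusted p = 0.430). A change of *p4ha1a* was not detected with these arrays. The interval above lies on a scale where the offset of the background correction compresses changes of dim probes, so it does not bound the change.

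The high *p4ha1a* value in mutant replicate 1 was not shared by the neighbouring spots. It lay 1.45 on the log2 scale above the mean of mutant replicates 3 and 4, while the 7 zebrafish probes among the 8 nearest spots differed by −0.15 to 0.56 between the same arrays, with a median of 0.14. Over the whole array 122 probes (0.298%) exceeded both other mutant arrays by at least as much in replicate 1.

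In the 3 called members replicate 1 was instead the lowest of the *vhl* mutant arrays. It lay below replicates 3 and 4 by 1.15 and 1.21 for *p4ha1b*, by 1.03 and 1.16 for *plod1a* and by 0.50 and 0.68 for *p4ha2*, on the log2 scale. Replicates 3 and 4 differed from each other by only 0.06, 0.13 and 0.18 for the same genes. Measured from the wild-type mean, replicate 1 reached 77.7% of the mean log2 rise of replicates 3 and 4 for *p4ha1b*, 70.9% for *plod1a* and 78.5% for *p4ha2*, against a median of 89.3% over the 687 probes called higher. It was the lowest mutant array for 376 of those 687 probes (54.7%). Without replicate 1 the log2 fold changes were 5.27 for *p4ha1b*, 3.73 for *plod1a* and 2.74 for *p4ha2*, with limma adjusted p-values of 6.26e-05, 0.000195 and 0.000246.

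The size of the rise was then compared between the members. The difference between 2 probes within an array removes whatever is shared by the whole array, and the change of this difference between the groups equals the difference of the 2 log2 fold changes. The rise of *p4ha1b* exceeded that of *plod1a* by 1.51 (SE 0.19), and that of *p4ha2* by 2.34 (SE 0.23). The rise of *plod1a* exceeded that of *p4ha2* by 0.83 (SE 0.19). The difference of *p4ha1b* from *plod1a* averaged −2.38 in wild-type and −0.87 in *vhl* mutants, and that from *p4ha2* −2.77 and −0.43. The *p4ha1b* probe thus started from the lowest level of the 3 and on average stayed the lowest in the mutants. Whether different probes turn RNA amount into signal alike was not tested.

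Differences from *p4ha1a* are values on this scale only, since its signal was near background on most arrays and the offset compresses changes of dim probes. The rise of *p4ha1b* exceeded that of *p4ha1a* by 4.52 (SE 0.89), the rise of *plod1a* exceeded it by 3.01 (SE 0.85), and that of *p4ha2* by 2.18 (SE 0.69). In these pairs mutant replicate 1 was the lowest of the mutants, being the array in which *p4ha1a* was high and the others were low. All 6 pairs had groups that did not overlap, as the plot of within-array differences shows, and each had an exact two-sided permutation p of 0.1 (0.1 after Benjamini-Hochberg adjustment over the 6 pairs), the smallest that 20 regroupings of 3 against 3 arrays allow. The 6 pairs share 4 probes, so they are not independent, and the share of all probe pairs so separated was not computed. As the names of 3 members came from the study's changed genes, the 3 differences from *p4ha1a* describe a choice made in part on these values. All 6 differences kept their direction in each of the 18 alternative settings in which they were computed. They were 1.33 to 1.65 for *p4ha1b* over *plod1a*, 2.26 to 2.53 for *p4ha1b* over *p4ha2*, and 0.752 to 0.997 for *plod1a* over *p4ha2*. Over *p4ha1a* they were 3.57 to 5.37 for *p4ha1b*, 1.97 to 3.84 for *plod1a* and 1.12 to 2.84 for *p4ha2*. Over all 6 arrays the exact p of these 3 was above 0.1 with the processed signal (0.2, 0.4 and 0.4), for *plod1a* and *p4ha2* also with the deposited series table (0.4 each) and for *p4ha2* with no offset (0.2). The exact p for *plod1a* over *p4ha2* was 0.2 without wild-type replicate 3 and without wild-type replicate 4, and those for *plod1a* and *p4ha2* over *p4ha1a* were 0.2 without any 1 of the wild-type replicates.

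**Figure D4:**
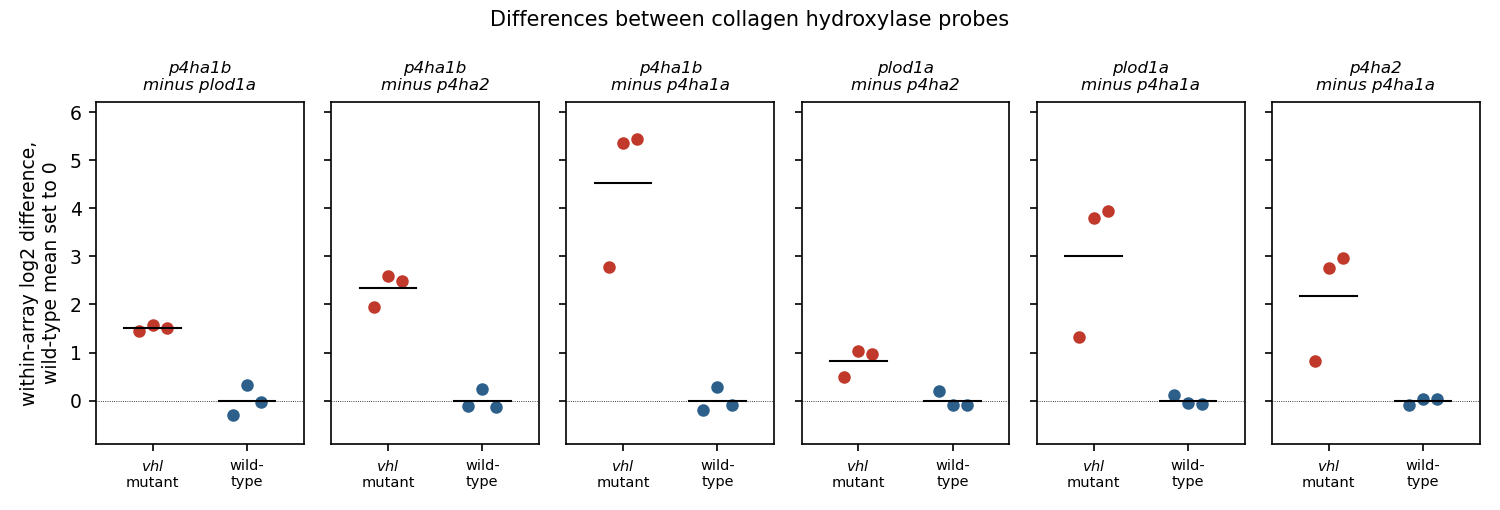
Within-array log2 difference between each of the 6 pairs of collagen hydroxylase probes, with the wild-type mean of each pair set to 0, for the 3 *vhl* mutant arrays (red, left) and the 3 wild-type arrays (blue, right), with black lines for the group means. The mutant arrays lie above the wild-type arrays in every pair. They lie close together for *p4ha1b* minus *plod1a* (mean 1.51) and are spread widest in the pairs with *p4ha1a*, where replicate 1 is the lowest.

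Over the 6 arrays the log2 intensities of *p4ha1b*, *plod1a* and *p4ha2* followed each other with Pearson's r of 0.994 to 0.997, and r was 0.16 to 0.22 between each of them and *p4ha1a*. The points fall into 2 groups of 3 arrays, and r was above 0.9 for 16.8% (*p4ha1b*), 16.4% (*p4ha2*) and 16.03% (*plod1a*) of the 2483 named probes compared with each. Among those probes, which were well above background on all arrays, the most alike to *p4ha1b* were *dzip1* (r of 0.999), *cpox*, an enzyme of haem synthesis (0.999), and the lysyl oxidase-like gene *loxl5b* (0.999). For *plod1a* they were *znf438* (0.998), *gpr137ba* (0.998) and *pfkfb3*, a regulator of glycolysis (0.997). For *p4ha2* they were the histone demethylase gene *kdm5ba* (0.999), the myoglobin gene *mb* (0.998) and the α globin gene *hbae1* (0.998). Of these genes only *cpox* had a name found without regard to the outcome. The others are named only through the study's changed genes, and the 2483 probes include names from that source. The likeness and the shares above 0.9 thus rest in part on a choice made on these arrays. The probes most like *p4ha1a* were *igfbp2b* (0.996), *zgc:171586* (0.991) and *hoxb2a* (0.989), and their log2 fold changes were small, at 0.14, 0.18 and 0.09. For *p4ha1a* r was above 0.9 for 1.21% of the probes, and as it stood out on mutant replicate 1 alone, these r values rest on that array. All these points share the same 6 arrays.

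Other genes of collagen synthesis were read where their probes had a name. The lists for this pathway held 131 genes, the 4 members included. Beyond the members, names found without regard to the outcome covered 11 of them, so most of the pathway was not analysed here. Of these 11, 0 were called higher and 0 lower in the limma fit, against 1.67% and 1.55% of all probes. With so few genes, 0 calls cannot be told apart from those shares. Of the 11, *colgalt2b*, *loxl5a* and *tll1* were well above background on 0 of 3 arrays in each group. *colgalt1b* was so on 2 of 3 mutant and 1 of 3 wild-type arrays. The offset compresses changes of such dim probes, so a change in them could be missed. The median log2 fold change of the 11 was 0.05, the value of *loxl5a*, against −0.00017 over all probes. At an adjusted p of 0.05 with no limit on the fold, 3 of the 11 passed, *col8a2* higher (as were 11.7% of all probes) and *p4hb* and *p3h4* lower (as were 12.7% of all probes). The plot of the collagen pathway sets these genes beside the 4 members.

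**Figure D5:**
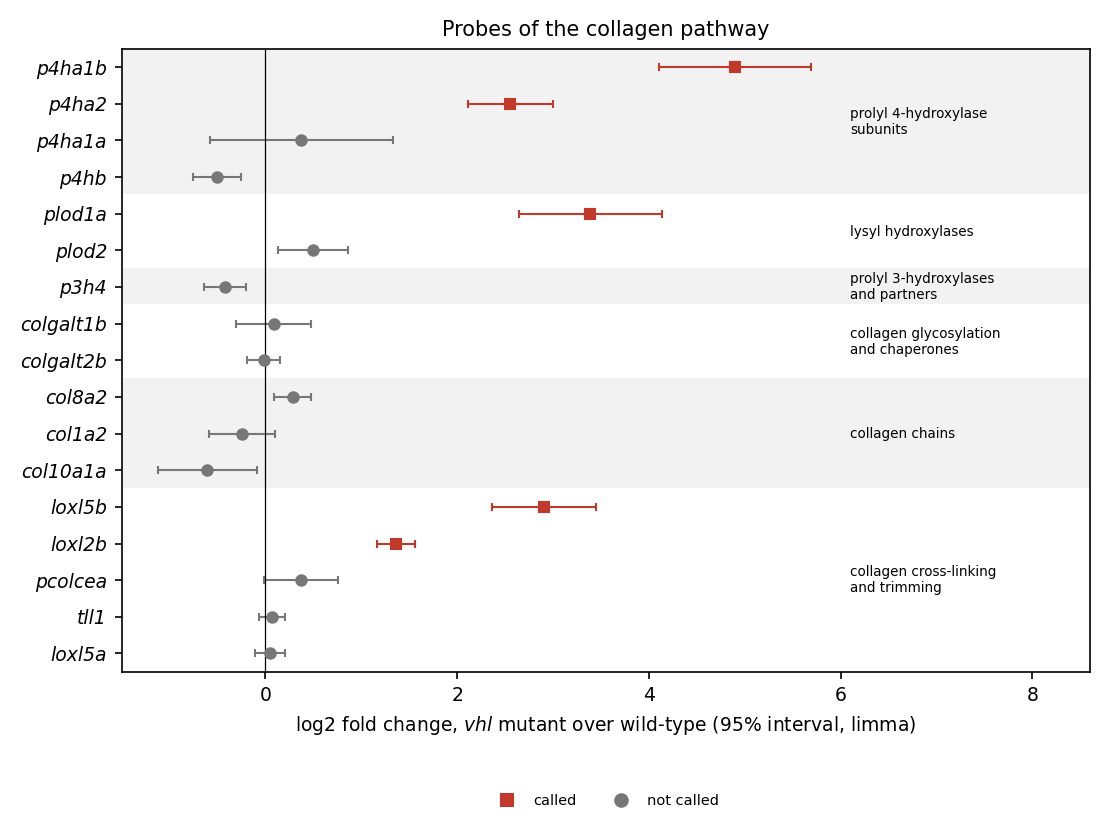
Log2 fold change of *vhl* mutant over wild-type with its 95% interval (x axis) for each named gene of the collagen pathway (y axis), grouped by role. Red squares are called genes, which are named only through the study's table of changed genes, and grey circles are genes that were not called. *p4ha1b*, *p4ha2* and *plod1a* lie at 2.56 or above, while *p4hb* lies at −0.51 and *plod2* at 0.50.

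The β subunit gene *p4hb*, whose product pairs with the α subunits, was read well above background on all 6 arrays. It had log2 intensities of 13.11, 13.03 and 12.83 in *vhl* mutant replicates 1, 3 and 4, against 13.45, 13.63 and 13.40 in wild-type replicates 2, 3 and 4. All mutant arrays were lower than all wild-type arrays, with 22.4% of all probes showing such a separation downwards. The log2 fold change was −0.51 (SE 0.10, limma adjusted p = 0.0164), which is outside the limits of a call. With spike-in scaling it was −1.20, where the median of all probes was −0.41. The fold change was below 0 in all 25 alternative settings, whereas those of *p4ha1b* and *p4ha2* were above 0 in each. Some of these settings could not change a fold change, as said with the other alternatives.

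The lysyl hydroxylase gene *plod2* was the 1 further member of its family with a named probe. It had log2 intensities of 11.25, 11.78 and 11.71 in *vhl* mutant replicates 1, 3 and 4, against 11.07, 10.99 and 11.19 in wild-type replicates 2, 3 and 4. Mutant replicate 1 lay just above the highest wild-type array. The log2 fold change was 0.50 (SE 0.15, limma adjusted p = 0.0590), and it turned to −0.22 when arrays were scaled to the spiked-in control RNA. The median of all probes was then −0.41, so *plod2* stayed above it.

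*p3h4*, which encodes a partner protein of the collagen hydroxylases in the endoplasmic reticulum of mammals, was dim. The log2 intensities were 7.22, 7.13 and 6.95 in *vhl* mutant replicates 1, 3 and 4, against 7.48, 7.48 and 7.61 in wild-type replicates 2, 3 and 4. The groups did not overlap, as for 22.4% of all probes in this direction, with a log2 fold change of −0.42 (SE 0.09, limma adjusted p = 0.0190). The sign turned without normalisation (0.08) and with scaling to the 75th percentile (0.24). The median of all probes was 0.56 and 0.71 in these settings, so *p3h4* stayed below it.

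Genes of glycosylation and of the substrate were not called. The collagen galactosyltransferase genes *colgalt1b* and *colgalt2b*, which put sugars on hydroxylysine, had log2 fold changes of 0.09 (limma adjusted p = 0.738) and −0.02 (0.872). The signal of *colgalt2b* did not rise well above background (0 of 3 mutant arrays, 0 of 3 wild-type arrays). That of *colgalt1b* did so on only 2 of 3 mutant and 1 of 3 wild-type arrays. Over 24 alternatives *colgalt1b* ranged from −0.26 (spike-in scaling) to 1.69 (processed signal), so its value near 0 does not measure a lack of change. The sign of both genes turned in some settings, given with the other alternatives. Among the 3 named collagen chains, *col10a1a*, a collagen of bone and cartilage, had log2 intensities of 11.45, 10.69 and 10.69 in *vhl* mutant replicates 1, 3 and 4, against 11.52, 11.60 and 11.53 in wild-type replicates 2, 3 and 4. Mutant replicate 1 was close to the wild-type arrays and the other mutants were lower, which gave a log2 fold change of −0.60 (SE 0.21, limma adjusted p = 0.0881), and −1.34 with spike-in scaling. *col8a2*, a short-chain collagen gene, had a log2 fold change of 0.28 (SE 0.08, limma adjusted p = 0.0459), with the sign turned by spike-in scaling (−0.24). The median of all probes was −0.41 with that scaling, so *col8a2* stayed above it. *col1a2*, the brightest of the 3 chains, averaged 15.32 ± 0.18 in *vhl* mutants and 15.57 ± 0.22 in wild-type (SD, n = 3 each). Its log2 fold change was −0.25 (SE 0.14, limma adjusted p = 0.267), and its groups overlapped. The sign was the same in all 25 alternatives, some of which could not change a fold change.

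A pair of lysyl oxidase-like genes, whose enzymes act on lysine and hydroxylysine to start cross-links, was called higher. Both are named only through the study's changed genes and so are counted apart. Of the 3 genes of cross-linking and trimming named without regard to the outcome, 0 were called. These were *loxl5a* (log2 fold change 0.05, limma adjusted p = 0.618), *tll1* (0.07, 0.387) and *pcolcea* (0.37, 0.145). *loxl5a* and *tll1* were well above background on 0 of 3 arrays in each group. The pair thus does not stand for its family. *loxl5b* had log2 intensities of 10.89, 11.73 and 11.60 in *vhl* mutant replicates 1, 3 and 4, against 8.36, 8.53 and 8.61 in wild-type replicates 2, 3 and 4. As in the 3 called members, mutant replicate 1 was the lowest of its group, and the log2 fold change was 2.91 (SE 0.22, limma adjusted p = 0.00111). This call was lost without normalisation (2.81), with scaling to the 75th percentile (2.96) and without wild-type replicate 3 (2.88). *loxl2b* had a log2 fold change of 1.36 (SE 0.08, limma adjusted p = 0.000677). With spike-in scaling it was 0.65 and not called, where the median of all probes was −0.41. Its call was also lost without normalisation (1.07) and with scaling to the 75th percentile (1.23). The same held with replicate numbers as a block (1.35), a fit that rests on replicates 3 and 4 alone.

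Markers of tissues that make collagen were sparsely named. Of 40 listed markers of cartilage, bone and tendon, 3 had a name found without regard to the outcome. Of these 3, 0 were called, against 3.22% of all probes. The log2 fold changes were −0.02 for *epyc* (cartilage), −0.10 for *runx2a* (osteoblasts, well above background on 0 of 6 arrays) and −0.02 for *scxa* (tendon). The normalised intensity of *epyc*, on the linear scale, was 1661 to 2758 on *vhl* mutant arrays and 1825 to 2217 on wild-type arrays, and that of *scxa* was 499 to 592 on mutant arrays and 494 to 597 on wild-type arrays, so the groups overlapped in both. The cartilage gene *ucmaa*, named only through the study's changed genes, was called higher, with a log2 fold change of 1.37 (limma adjusted p = 0.00797).

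Markers of some other tissues were called. The erythroid marker *alas2*, which starts haem synthesis, was the 1 of 12 listed that had a name found without regard to the outcome, with a linear intensity of 1400 to 3008 on *vhl* mutant arrays and 200 to 314 on wild-type arrays (log2 fold change 2.88, limma adjusted p = 0.00268). The summed linear intensity of the 5 retinal markers named in this way, of which 3 were called lower, was 45060 to 61318 on mutant arrays and 141759 to 160760 on wild-type arrays. Of the further lists, 0 of 4 muscle, 1 of 4 lens, 0 of 2 liver and 0 of 1 pancreas markers were called, against 3.22% of all probes. The lens call was *crygn2*, higher with a log2 fold change of 4.17 (limma adjusted p = 0.000383). Lens markers not called were *cryaa* (−1.24, limma adjusted p = 0.0145), *cryba1b* (−0.19) and *crybb1* (0.39). The pancreas marker *ctrl* was at 0.46. Of markers named only through the study's changed genes, *hpxb* (log2 fold change 4.95, limma adjusted p = 0.00139) and *fga* (1.67, limma adjusted p = 0.00337) of liver were called higher and *cpa4* (−1.73, limma adjusted p = 0.00407) of pancreas lower. The liver marker *serpina1* from this source was lower but not called (−0.87, limma adjusted p = 0.00468). Erythroid *hbbe2* (2.16) and *sptb* (1.37) were called higher, and retinal *opn1sw1* (−1.03), *opn1sw2* (−1.82) and *pde6c* (−1.28) lower. The part of these tissues in the rise of the hydroxylase genes was not tested.

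*egln3* encodes a HIF prolyl hydroxylase, an enzyme that uses the same cofactors on a different substrate. It had log2 intensities of 16.02, 15.70 and 15.33 in *vhl* mutant replicates 1, 3 and 4, against 8.98, 8.80 and 8.95 in wild-type replicates 2, 3 and 4. The log2 fold change was 6.77 (SE 0.18, limma adjusted p = 0.000115), a call, and *egln3* is named only through the study's changed genes. Replicate 1 was the highest of the mutants here, whereas it was the lowest for the 3 called collagen hydroxylases. The study also calls *egln3* by the name *phd3*, which the reporter transgene of the line carries. As the reporter status of the wild-type pools is not given, an effect of the transgene on the *egln3* probe was not tested.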

How the data were processed

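RNA of 6 pools of 30 embryos was hybridised to one-colour arrays from 400 ng each. Per the file headers, the authors read the spots with Agilent Feature Extraction 10.7.3.1, and the values used are intensities (for a spot and its local surroundings, the median over pixels) that were not normalised. The mean brightness named in the plan was not used here. The deposited processed signal, also an intensity, is background-subtracted and was used as an alternative. The deposited spot flags are codes with no unit. All value columns belonged to a sample.

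Following the functions the study's methods name (limma 3.24.10 there, limma 3.58.1 in R 4.3.3 here), normexp (offset 50, by which changes of dim probes are understated) was fitted on all 45220 spots. Control spots and 15 to 63 outlier spots per array were then dropped, 43803 spots were quantile-normalised and averaged by probe name, and the groups, taken from the sample titles, were compared with lmFit and eBayes over all 6 arrays and 41031 probes with Benjamini-Hochberg adjustment. The scripts were tested on simulated data. Pairs of members were compared within arrays with an exact permutation test. With 3 arrays per group, the number of arrays limits the precision.

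Gene names came from RefSeq by accession (1752 probes), the study's full probe table (805 more) or, counted apart, its table of changed genes, and 3159 probes had a name by any route. The genes named are the 4 members, each named hydroxylase or partner, the called genes of the other lists (or the 2 with the largest change), *egln3*, and the 3 probes most alike to each member. Markers, *col1a2* and the uncalled genes of cross-linking and trimming were added by list. The members and lists were chosen with earlier results of these data known. Probe, promoter and protein sequences were not used here, so the planned motif search and alignment were not run, and cross-hybridisation between paralogues was not tested. Alternatives covered the signal, background correction, normalisation, spots, variance model, thresholds, pairing by replicate number and leaving out each replicate.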

Additional observations from a re-analysis of the deposited data

How the results depend on the processing

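In all 25 alternatives the log2 fold changes of *p4ha1b* (4.32 to 5.27), *plod1a* (2.72 to 3.83) and *p4ha2* (1.87 to 2.76) kept their direction. Some alternatives could not change a fold change. They altered only the thresholds, used an intensity trend or robust variance, or left out dim probes. The calls were lost without normalisation (4.72, 3.12 and 2.26, with 0 members and 3 probes called higher and 0 lower) and with the 75th percentile after normexp (4.87, 3.27 and 2.42, with 0 members, 9 probes higher and 0 lower). *plod1a* also lost its call in 2 of the 6 fits without 1 replicate. Leaving out each replicate gave 4.67 to 5.27 for *p4ha1b*, 3.16 to 3.73 for *plod1a*, 2.41 to 2.74 for *p4ha2* and −0.11 to 0.70 for *p4ha1a*, with 2 to 3 members called, and 194 to 1092 probes called higher and 185 to 1044 lower. The probes called were 1935 higher with the processed signal at the 75th percentile, 413 higher and 5661 lower with spike-in scaling, and 4804 higher and 5225 lower at an adjusted p of 0.05 with no fold limit. The cause of these differences was not tested. The scaling settings moved the median log2 fold change of all probes to 0.33 (processed signal), 0.56 (no normalisation), 0.71 (75th percentile) and −0.41 (spike-in), and relative to it, in this order of settings, *p4ha1b* was at 4.78, 4.16, 4.16 and 4.73, *plod1a* at 3.21, 2.56, 2.56 and 3.14, and *p4ha2* at 2.43, 1.70, 1.70 and 2.28. The spike-in scale was the mean over control probes of their medians, chosen after seeing the data, and its fit gave all probes 1 variance, so nothing rests on its calls, which are given as counts. They held 2 other collagen-pathway genes, *p4hb* (−1.20) and *col10a1a* (−1.34), and 3 were called at an adjusted p of 0.05. Signs turned for *plod2* (−0.22), *colgalt1b* (−0.26), *col8a2* (−0.24), *loxl5a* (−0.29), *tll1* (−0.26) and *pcolcea* (−0.33) with spike-in scaling, for *p3h4* without normalisation (0.083) and at the 75th percentile (0.24), and for *colgalt2b* with the processed signal (0.40), without normalisation (0.72) and at the 75th percentile (0.88). Read against the median of all probes in each setting, the genes turned by spike-in scaling stayed above it. *p3h4* stayed below this median, and *colgalt2b* lay above it in its 3 settings. Without 1 replicate *colgalt1b* reached −0.018 to 0.26 and *colgalt2b* −0.075 to 0.015. The reported log2 fold changes of *loxl5a*, *tll1* and *pcolcea* were 0.05, 0.07 and 0.37. With the processed signal they were 1.24, 1.13 and 0.38, and that of *colgalt1b* was 1.69. The median of all probes was 0.33 in that setting, and these 4 genes were not called in it. *loxl5a* and *tll1* were well above background on 0 of 3 arrays in each group.

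Mutant and wild-type arrays share only the replicate numbers 3 and 4, and the labels do not tie these together. Deviations from the group means of arrays with the same number had r of 0.01 and 0.01. With the replicate block 177 probes were called higher and 134 lower, the 3 members stayed called at 5.22, 3.83 and 2.73, and *p4ha1a* (−0.088), *colgalt1b* (−0.037) and *colgalt2b* (0.016) turned sign. The signal of *p4ha1a* near background limits what can be said of it.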
